A study of Mus musculus with 10 samples.

Results

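The transcripts described here are those of 9 genes of fibroblast growth factor (FGF) signalling, out of 43346 genes in the deposited table. They comprise 5 ligands (Fgf1, Fgf2, Fgf7, Fgf10 and Fgf18) and 4 receptors (Fgfr1, Fgfr2, Fgfr3 and Fgfr4), taken as the rows of the table that carry these gene names. Fgf7 was chosen by its own RPKM values, which stood higher in the antibody group than in the vehicle group, so that difference is described without a test. The RNA came from outflow veins of arteriovenous fistulas in mice, in which an artery is joined directly to a vein and the vein wall then carries arterial flow. Per the labels, all mice were of strain C57 with human CX3CR1, which encodes the fractalkine receptor, knocked in, and all had chronic kidney disease for 28 days before the carotid artery and jugular vein were used for the fistula. The antibody group (5 libraries) received antibody at 30 mg/kg and the vehicle group (5 libraries) an equal volume of vehicle, both given intraperitoneally 2 times per week, and veins were taken 7 days after the fistula. The antibody's target is human CX3CR1 in the treatment label but fractalkine in the series title, and the labels do not settle which it was. Nothing in the labels ties libraries to separate animals, so p-values measure the spread between these libraries, which may be technical.

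FGF ligands are secreted proteins that bind receptor tyrosine kinases together with heparan sulfate on the cell surface and in the matrix. Active receptors pass the signal through the adaptor Frs2 to the Ras and MAP kinase cascade, and the Sprouty, Dusp and Etv genes are among those switched on in response. FGF7 and FGF10 are made mainly by mesenchymal cells and act on the epithelial splice form of FGFR2, while FGF2 is a mitogen of smooth muscle cells, fibroblasts and endothelium. Gene totals do not separate the splice forms of the receptors.

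Promoters of 4 genes are shown, because these genes carry the patterns described below: Fgf7, which stood higher in antibody veins; Fgf2 and Fgf10, whose levels were high in some of the same libraries; and Fgfr4, which was high where muscle transcripts were high. Each sequence is from RefSeq on GRCm38.p6 and runs 5′ to 3′ on the gene's strand from 250 bases before to 50 bases after the RefSeq transcript start, which for Fgf2, Fgf10 and Fgfr4 lies inside the span that the deposited table gives for the gene. Of the 9 genes, 7 had an entry. Capitals mark matches on either strand to TATAAA (the TATA box), to CCAAT (the CCAAT box), to GGGCGG (the GC box), to TGANTCA (the AP-1 site) or to CAGCTG (an E-box).
Fgf7 (chr2:126034408-126034707, + strand): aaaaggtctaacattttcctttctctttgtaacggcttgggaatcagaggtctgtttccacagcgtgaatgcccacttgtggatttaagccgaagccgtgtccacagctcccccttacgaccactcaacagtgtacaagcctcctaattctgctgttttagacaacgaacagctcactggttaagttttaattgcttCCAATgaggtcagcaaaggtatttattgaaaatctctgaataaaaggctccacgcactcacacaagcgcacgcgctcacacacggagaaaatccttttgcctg
Fgf10 (chr13:118714449-118714748, + strand): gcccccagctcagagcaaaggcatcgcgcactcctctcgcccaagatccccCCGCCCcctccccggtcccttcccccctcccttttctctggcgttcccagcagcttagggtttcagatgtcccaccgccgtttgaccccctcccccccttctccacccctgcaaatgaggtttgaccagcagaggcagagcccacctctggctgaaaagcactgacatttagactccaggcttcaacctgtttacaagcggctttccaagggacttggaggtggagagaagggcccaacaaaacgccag
Fgf2 (chr3:37348403-37348702, + strand): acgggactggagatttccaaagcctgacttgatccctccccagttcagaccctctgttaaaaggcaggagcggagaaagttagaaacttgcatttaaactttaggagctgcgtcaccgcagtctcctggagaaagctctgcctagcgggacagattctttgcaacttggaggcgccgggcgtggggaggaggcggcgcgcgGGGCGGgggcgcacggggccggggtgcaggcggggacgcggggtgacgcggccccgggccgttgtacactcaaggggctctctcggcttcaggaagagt
Fgfr4 (chr13:55152568-55152867, + strand): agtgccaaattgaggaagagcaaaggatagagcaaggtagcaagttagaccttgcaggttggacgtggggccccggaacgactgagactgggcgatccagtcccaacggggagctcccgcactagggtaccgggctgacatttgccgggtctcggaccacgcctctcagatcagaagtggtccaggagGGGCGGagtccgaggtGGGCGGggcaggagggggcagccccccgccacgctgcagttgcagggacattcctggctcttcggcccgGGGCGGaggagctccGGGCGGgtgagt
The Fgf7 promoter was the poorest of these 4 in G and C, at 45.7% against 60.7% for Fgf10, 62.7% for Fgf2 and 65.3% for Fgfr4, where the median of 32851 RefSeq promoters was 52.7%. The Fgfr2 promoter, not shown, was poorer still, at 43.7%, and also had no GGGCGG match. Fgf7 held 1 CCAAT match and no GGGCGG match. Fgf10 and Fgf2 each held 1 GGGCGG match and Fgfr4 held 4. Of all promoters 37.4% held a CCAAT match, 35.7% GGGCGG, 13.6% TATAAA, 16.3% CAGCTG and 7.81% TGANTCA, and the last 3 had no match in these windows. The matches describe letters only.

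Reads assigned to genes numbered 4282872 to 34271554 per library, with a median of 12467973 in antibody and 20916617 in vehicle veins. Values are RPKM (reads divided by gene length and by library size) after scaling for composition, given as mean ± SD with n = 5 per group. Vessel wall markers were present throughout: summed endothelial markers stood at 145 to 188 RPKM, smooth muscle markers at 237 to 487 RPKM and fibroblast markers at 3426 to 5515 RPKM over the 10 libraries. Transcripts of tissues other than the vessel wall varied between libraries. Summed skeletal muscle markers stood at 4173 RPKM in antibody replicate 5, 7758 RPKM in vehicle replicate 4 and 5112 RPKM in vehicle replicate 5, against 419 to 1125 RPKM in the other 7 libraries. Summed kidney tubule markers stood at 3.36 to 64.8 RPKM with antibody and 5.88 to 60.4 RPKM with vehicle.

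Fgfr1 was the most abundant member and Fgf7 the most abundant ligand. Over the 10 libraries the mean levels fell from 27.9 ± 5.51 RPKM for Fgfr1 to 9.56 ± 2.59 RPKM for Fgf7, 3.91 ± 1.14 RPKM for Fgf18 and 2.98 ± 0.802 RPKM for Fgf2. They continued with Fgfr2 at 1.70 ± 0.314 RPKM, Fgfr3 at 1.36 ± 0.407 RPKM, Fgf1 at 1.22 ± 0.511 RPKM, Fgf10 at 1.07 ± 0.419 RPKM and Fgfr4 at 0.797 ± 0.634 RPKM (SD, n = 10). Among the 17859 genes tested, Fgfr1 stood at the 91.2nd percentile of mean RPKM, Fgf7 at the 72.5th and Fgfr4 at the 16.5th. Of the 8 neighbouring pairs in this order, 3 differed within libraries by an exact two-sided sign-flip permutation test adjusted over the 8 pairs. The order came from mean levels in these same libraries, so the direction of each pair was set by the data tested. Fgf7 was also chosen by its own values, so the p-values of pairs that contain it are a description. Fgfr1 exceeded Fgf7 in 10 of 10 libraries, by 2.97-fold on average (exact permutation, adjusted p = 0.00781), and Fgf7 exceeded Fgf18 in 10 of 10, by 2.47-fold (exact permutation, adjusted p = 0.00781). Both folds contain Fgf7 and so differed between groups: Fgfr1 exceeded Fgf7 by 2.17-fold with antibody and 4.08-fold with vehicle, and Fgf7 exceeded Fgf18 by 3.47-fold and 1.76-fold. Fgf2 exceeded Fgfr2 in 9 of 10, by 1.72-fold (exact permutation, adjusted p = 0.0156). The step from Fgf18 to Fgf2 (1.30-fold, 8 of 10 libraries, exact permutation adjusted p = 0.0742) and the steps below Fgfr2 were within the spread (exact permutation adjusted p from 0.109 to 0.408). Levels per length depend on the gene model: Fgf2 has a length of 1801 bases in the table and 6782 exonic bases in GENCODE M21. Of the latter, 640 are shared with Nudt6 on the opposite strand and 255 with Gm43439 on the same strand. Whether the shorter model holds any of these bases was not checked, and reads from shared bases cannot be told apart here.

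**Figure D1:**
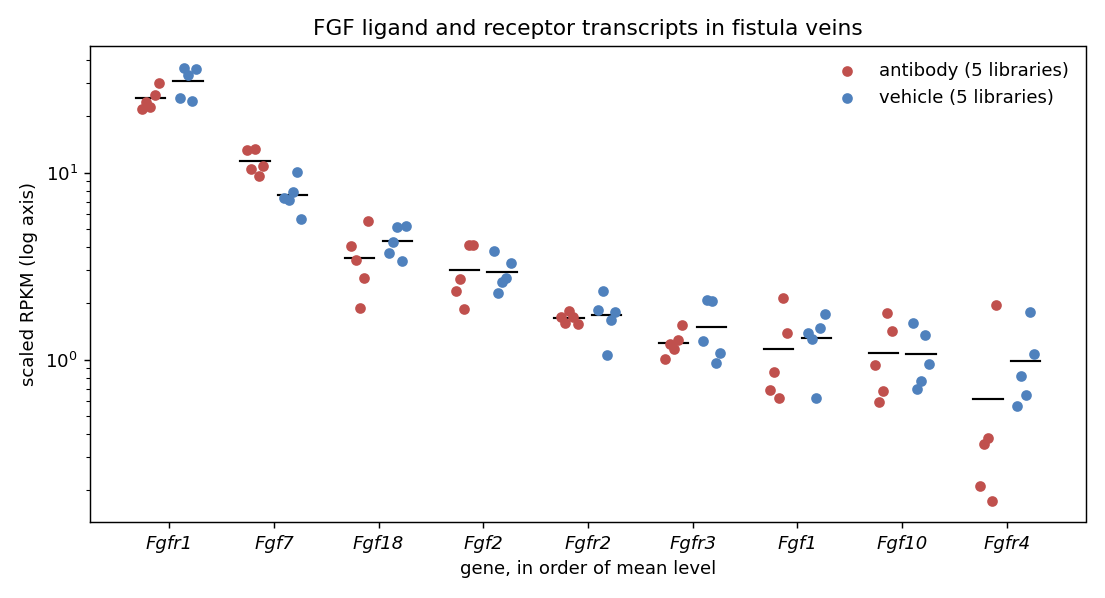
Scaled RPKM (log axis) of the 9 FGF genes in the 5 antibody (red) and 5 vehicle (blue) libraries, in order of mean level, with a black line at each group mean. Fgfr1 stands highest and Fgf7 next in each library, and Fgfr4 spans the widest range.

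Fgf7, also named keratinocyte growth factor, averaged 11.5 ± 1.70 RPKM with antibody and 7.60 ± 1.60 RPKM with vehicle. The gene lies on chromosome 2 from 126034658 to 126091185 (mm10), and none of its exonic bases are shared with another gene of GENCODE M21. Antibody replicates 1 to 5 stood at 13.3, 10.5, 13.4, 9.63 and 10.9 RPKM, and vehicle replicates 1 to 5 at 7.34, 7.10, 7.89, 10.1 and 5.63 RPKM. The 5 antibody values lay above 4 of the 5 vehicle values, and vehicle replicate 4 lay above antibody replicate 4, so the groups overlapped in these libraries. These levels rest on 164 to 1139 reads per library. The fitted difference was 0.58 on the log2(RPKM + 0.5) scale, which understates changes of low genes (SE 0.15), or 1.49-fold with a 95% interval from 1.19-fold to 1.88-fold. It was 0.48 to 0.68 when single libraries were left out. Because Fgf7 was picked for this contrast, these values are a description.

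The share of the 5 ligands' summed RPKM that was Fgf7 ran from 46.7% to 72.6% in antibody veins (median 58.1%) and from 33.6% to 53.1% in vehicle veins (median 45.5%). Fgf7 exceeded its close relative Fgf10 by 5.42-fold to 19.6-fold in antibody and 4.68-fold to 10.2-fold in vehicle veins. Of the 8 fibroblast markers, genes of a known source of FGF7, 7 had a lower mean in antibody veins. By limma, 1 of them had an unadjusted p below 0.05 and 0 passed after adjustment. With scaling by totals only, 6 were lower and 2 higher. Of all genes tested, 48.8% had a higher mean log2 in antibody veins. The summed fibroblast markers stood at 3426 to 4050 RPKM with antibody and 3570 to 5515 RPKM with vehicle. All 6 neutrophil markers had a higher mean in antibody veins, 3 of them at an unadjusted p below 0.05 by limma and 0 after adjustment. Their sum was 261, 245, 369, 57.4 and 55.2 RPKM in antibody replicates 1 to 5 and 47.5, 23.4, 103, 143 and 46.7 RPKM in vehicle replicates 1 to 5. The libraries highest in Fgf7 within each group, antibody replicates 3 and 1 and vehicle replicate 4, were also those highest in these neutrophil markers. Antibody replicate 2 departed from this order. Its neutrophil sum was 245 RPKM against 55.2 RPKM in antibody replicate 5, but its Fgf7 level was lower, 10.5 against 10.9 RPKM. The 6 T cell markers all had a higher mean in antibody veins, 2 of them at an unadjusted p below 0.05 by limma and 0 after adjustment. They summed to 5.03 to 32.2 RPKM with antibody and 5.28 to 9.75 RPKM with vehicle. The part of either cell type in the Fgf7 difference was not tested. In bulk samples, fewer cells of a type and less RNA per cell cannot be told apart.

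After each group's mean was subtracted, the 5 genes whose log2 levels followed Fgf7 most closely over the 10 libraries were Erbin (Pearson r = 0.91), the stromal chemokine gene Cxcl12 (0.90), the splicing gene Snrpd3 (0.88), the nuclear pore gene Nup153 (0.87) and Il6st, which encodes the shared receptor gp130 of the interleukin-6 family (0.86). They were the highest of 7273 genes with a mean of at least 5 RPKM, and so many comparisons always yield high coefficients. The libraries share depth and tissue composition, and the coefficients are a description.

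Of the other 4 ligands none passed the test across all genes, and each had overlapping groups. Among the 17859 genes tested by limma, 0 (0%) had an adjusted p below 0.05, 1166 (6.53%) an unadjusted p below 0.05, and limma-voom, run on reads recovered from the RPKM values, called 0 as well, with 1061 at an unadjusted p below 0.05. By direction, 3.55% of genes tested were higher and 2.98% lower in antibody veins at an unadjusted p below 0.05, and none of the 8 tested FGF genes were among them. All 9 FGF genes passed the filter on low reads. In none of the 9 did the groups separate without overlap, which happened for 0.666% of genes tested in the higher and 0.448% in the lower direction. The median log2 difference of the 8 genes other than Fgf7 was -0.17, beside -0.0053 over all genes tested.

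Fgf10, the other mesenchymal ligand of the epithelial FGFR2 form (chromosome 13, 118669791 to 118792115), had nearly equal means, 1.08 ± 0.504 RPKM with antibody and 1.07 ± 0.376 RPKM with vehicle. In antibody replicates 1 to 5 it stood at 0.931, 0.595, 0.681, 1.78 and 1.42 RPKM, and vehicle replicates 1 to 5 at 1.57, 0.699, 0.771, 1.35 and 0.946 RPKM. Each group had high and low libraries over much the same range. Its difference of -0.01 on the log2 scale (SE 0.23) did not pass by limma (adjusted p = 0.991) or by exact permutation (p = 0.968), and the 95% limits were 0.696-fold and 1.41-fold. Whether Fgf10 and Fgf7 differed in their response was not tested, because Fgf7 was chosen for its value.

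Fgf2, the mitogen held in the matrix by heparan sulfate (chromosome 3, 37312519 to 37405377 in the table), stood at 2.32, 2.69, 1.86, 4.10 and 4.11 RPKM in antibody replicates 1 to 5. In vehicle replicates 1 to 5 it stood at 3.81, 2.28, 2.60, 2.72 and 3.28 RPKM. The highest and the lowest value were both in antibody veins. Its log2 difference was -0.00027 (SE 0.21, 95% limits 0.730-fold and 1.37-fold, limma adjusted p = 0.9999, and p = 1.0 by exact permutation).

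Fgf1, a ligand of all FGF receptors (chromosome 18, 38838673 to 38929404), stood at 0.691, 0.857, 0.626, 2.13 and 1.39 RPKM in antibody replicates 1 to 5. Vehicle replicates 1 to 5 stood at 1.39, 1.28, 0.622, 1.47 and 1.75 RPKM. Antibody replicates 1 to 3 and vehicle replicate 3 lay below 0.9 RPKM and the other 6 libraries above 1.2 RPKM. On the log2 scale the groups differed by -0.18 (SE 0.26, 95% limits 0.595-fold and 1.31-fold, limma adjusted p = 0.876, and p = 0.563 by exact permutation). Single libraries moved this value: it ran from -0.062 without antibody replicate 3, -0.082 without antibody replicate 1 and -0.093 without vehicle replicate 5 to -0.34 without vehicle replicate 3 and -0.37 without antibody replicate 4.

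Fgf18, a ligand known for its role in cartilage and bone (chromosome 11, 33117430 to 33147400), averaged 3.51 ± 1.37 RPKM with antibody and 4.31 ± 0.810 RPKM with vehicle. Levels in antibody replicates 1 to 5 stood at 4.06, 3.39, 1.89, 2.72 and 5.50 RPKM and vehicle replicates 1 to 5 at 3.71, 4.24, 5.09, 3.36 and 5.17 RPKM. The lowest value, antibody replicate 3, rested on 10 reads, with an exact Poisson 95% interval from 0.904 to 3.47 RPKM that covers counting error only. Its fitted log2 difference was -0.31 (SE 0.23, 95% limits 0.567-fold and 1.14-fold, limma adjusted p = 0.779, and p = 0.254 by exact permutation). It was -0.14 without antibody replicate 3, -0.48 without antibody replicate 5 and -0.49 without the 3 libraries highest in skeletal muscle markers, and did not pass in any of them. Summed cartilage markers (6 genes) ran from 4.74 to 9.70 RPKM with antibody and from 3.85 to 8.64 RPKM with vehicle.

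Fgf1, Fgf2 and Fgf10 were high in some of the same libraries, antibody replicate 4 being the highest or next to highest for each. Of the 36 pairs among the 9 genes, compared after subtracting group means, Fgf2 and Fgf10 had the highest Pearson r, 0.81 (permutation p = 0.0070, 0.181 adjusted over the 36 pairs), with Spearman rho 0.82 (permutation p = 0.0060, adjusted 0.149). Fgf1 and Fgf2 gave r = 0.77 (permutation p = 0.0101, adjusted 0.181) and rho 0.79 (permutation p = 0.0083, adjusted 0.149). Fgf1 and Fgf10 gave r = 0.73 (permutation p = 0.0191, adjusted 0.229) and rho 0.73 (permutation p = 0.0207, adjusted 0.248). None of the 36 passed the adjustment. Without the 2 libraries farthest from the median on the first-named gene, r was 0.67, 0.79 and 0.59 in that order. Within the antibody group, adipocyte markers stood highest in replicates 4 and 5. The sum of the 6 markers was 192, 88.6, 78.7, 565 and 313 RPKM in antibody replicates 1 to 5. In vehicle replicates 1 to 5 it was 159, 170, 167, 213 and 230 RPKM. There, replicate 1 had the lowest sum and the highest Fgf2 and Fgf10 levels, and replicate 5 the highest sum and the highest Fgf1 level. Summed kidney tubule markers stood at 4.37, 26.5, 18.9, 64.8 and 3.36 RPKM in antibody replicates 1 to 5. In vehicle replicates 1 to 5 they stood at 42.6, 5.88, 8.22, 14.2 and 60.4 RPKM. Antibody replicate 4 and vehicle replicates 1 and 5 thus had the highest kidney sums. Antibody replicate 5, with the highest Fgf2 level, had the lowest. The part of fat or kidney transcripts in the ligand levels was not tested.

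**Figure D2:**
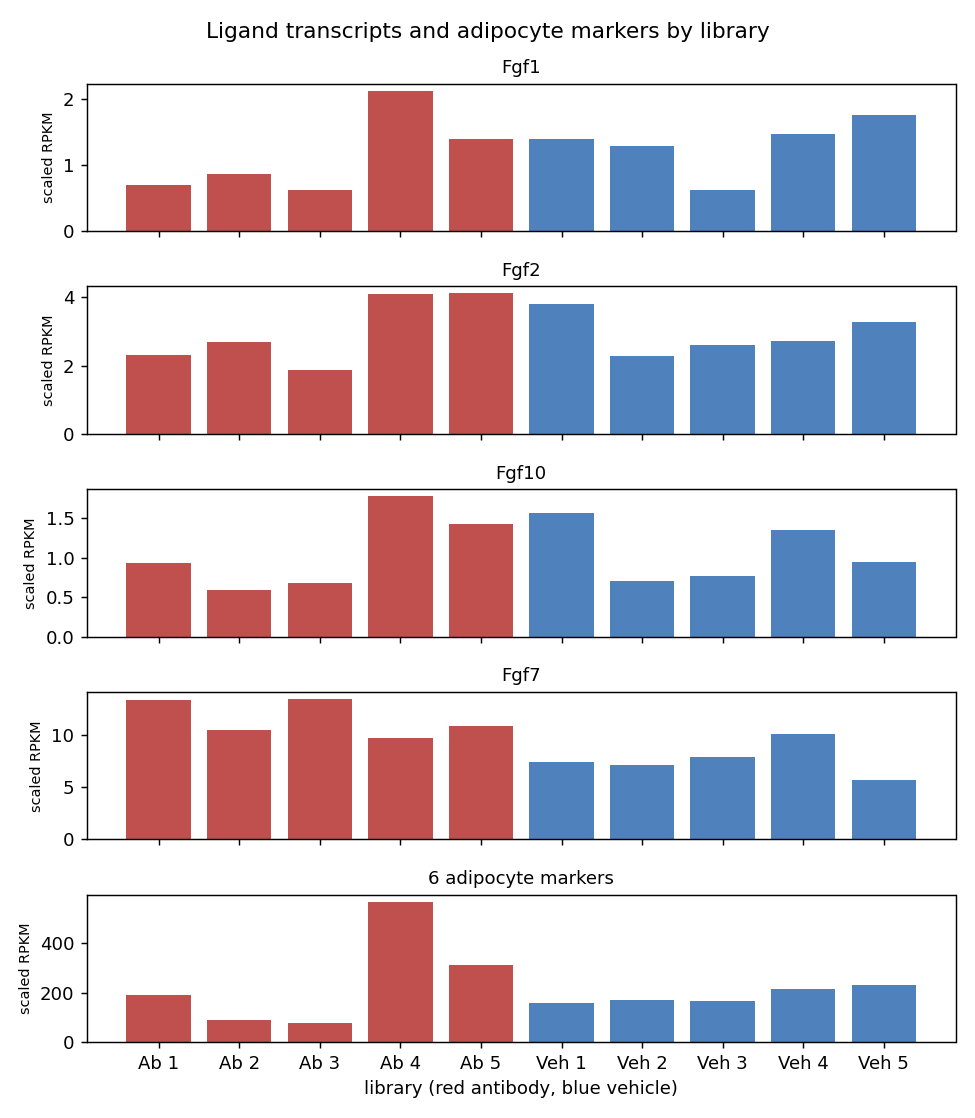
Scaled RPKM of Fgf1, Fgf2, Fgf10 and Fgf7 and the summed scaled RPKM of 6 adipocyte markers, 1 bar per library (Ab, antibody, red; Veh, vehicle, blue). Antibody replicate 4 has the highest Fgf1 and Fgf10 levels and the highest adipocyte sum, at 565 RPKM, while its Fgf7 level is the lowest of the antibody group.

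Fgfr1, the main FGF receptor of mesenchymal cells (chromosome 8, 25513654 to 25575714), made up 84.6% to 90.0% of the summed RPKM of the 4 receptors in the 10 libraries. Its mean share was 87.8% ± 1.37 in antibody and 87.8% ± 2.20 in vehicle veins. Antibody replicates 1 to 5 stood at 21.8, 23.9, 22.5, 26.1 and 30.3 RPKM and vehicle replicates 1 to 5 at 25.2, 36.4, 33.2, 24.3 and 35.7 RPKM. Vehicle replicates 2, 3 and 5 lay above every antibody value, and vehicle replicates 1 and 4 within the antibody range. The log2 difference was -0.30 (SE 0.14) and did not pass (limma adjusted p = 0.739, and p = 0.0794 by exact permutation), with 95% limits of 0.653-fold and 1.02-fold. Summed fibroblast markers, of which Col1a1 alone averaged 2786 RPKM, stood at 3426 to 4050 RPKM with antibody and 3570 to 5515 RPKM with vehicle. In vehicle replicates 3 and 5 both this sum and Fgfr1 lay above the antibody range. Vehicle replicate 2, the highest in Fgfr1, had a sum of 3903 RPKM, inside the antibody range. Vehicle replicate 1 had a sum of 4808 RPKM, with Fgfr1 inside the antibody range. The part of fibroblasts in the Fgfr1 difference was not tested.

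Fgfr2, whose epithelial splice form binds FGF7 and FGF10, was close to level between groups (chromosome 7, 130162451 to 133123350, a span that overlaps 69 other genes and shares 314 exonic bases with 1 of them). Antibody replicates 1 to 5 stood at 1.69, 1.57, 1.83, 1.70 and 1.55 RPKM and vehicle replicates 1 to 5 at 1.84, 2.33, 1.06, 1.64 and 1.80 RPKM. The antibody values all lay inside the vehicle range. Between groups the log2 difference was -0.02 (SE 0.14, 95% limits 0.792-fold and 1.23-fold, limma adjusted p = 0.980, and p = 0.873 by exact permutation). Epithelial markers were scarce: 3 of 7 passed the filter on low reads, and the sum of all 7 was 1.71 to 5.78 RPKM with antibody and 1.32 to 14.9 RPKM with vehicle. The highest sum, in vehicle replicate 4, was mostly the keratin gene Krt18 at 12.5 RPKM, and Epcam, a general epithelial surface marker, stayed between 0.0547 and 0.357 RPKM.

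Fgfr3, a receptor known from the growth plate (chromosome 5, 33721724 to 33737068), averaged 1.23 ± 0.191 RPKM with antibody and 1.49 ± 0.542 RPKM with vehicle. Of its exonic bases in GENCODE M21, 998 are shared with a transcript on the opposite strand. Antibody libraries ran from 1.01 to 1.52 RPKM. Vehicle replicates 2 and 3 stood at 2.09 and 2.05 RPKM, above all others, and vehicle replicates 1, 4 and 5 at 1.25, 0.963 and 1.08 RPKM. The log2 difference was -0.17 (SE 0.18, 95% limits 0.679-fold and 1.17-fold, limma adjusted p = 0.834, and p = 0.397 by exact permutation). It was -0.060 without vehicle replicate 2, -0.068 without vehicle replicate 3, -0.27 without vehicle replicate 4 and -0.45 without the 3 libraries highest in skeletal muscle markers, and passed in none of these (limma adjusted p from 0.704 to 0.966).

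Fgfr4, a receptor of muscle progenitors and of liver (chromosome 13, 55152640 to 55168759), varied most among the 9 genes, over an 11.1-fold range. Antibody replicates 1 to 5 stood at 0.212, 0.352, 0.379, 0.176 and 1.96 RPKM and vehicle replicates 1 to 5 at 0.563, 0.816, 0.643, 1.81 and 1.07 RPKM. Antibody replicate 5 and vehicle replicate 4 stood apart from the others, while the other 4 antibody libraries lay below all 5 vehicle libraries. The 3 lowest read counts were 6, 7 and 12, in antibody replicates 3, 1 and 4. The log2 difference was -0.54 (SE 0.35) and did not pass (limma adjusted p = 0.771, and p = 0.206 by exact permutation), with 95% limits of 0.402-fold and 1.18-fold. It was -0.87 without antibody replicate 5 and -0.60 without the 3 libraries highest in skeletal muscle markers, and did not pass in either.

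Summed markers of muscle satellite cells, the stem cells of skeletal muscle, were highest and lowest in the same libraries as Fgfr4. The sum of Pax7, Myf5 and Myod1 was 1.02, 1.18, 0.824, 0.412 and 10.5 RPKM in antibody replicates 1 to 5 and 1.64, 3.12, 2.01, 8.24 and 2.40 RPKM in vehicle replicates 1 to 5. As for Fgfr4, antibody replicate 5 had the highest sum, vehicle replicate 4 the next and antibody replicate 4 the lowest, and the other 3 antibody libraries lay below every vehicle library. Single markers departed from this order: Pax7 was lowest in antibody replicate 2, Myod1 in antibody replicate 3, and Myf5 was highest in vehicle replicate 4. Myf5 in antibody replicates 2 and 3 lay above vehicle replicates 1 and 3. Antibody replicates 1 to 4 had 1 to 29 reads per marker. The 8 markers of mature muscle fibres had another order, with vehicle replicate 5 at 5112 RPKM above antibody replicate 5 at 4173 RPKM. The libraries fall into separate sets, so no coefficient is given, and the part of muscle tissue in the Fgfr4 difference was not tested.

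**Figure D3:**
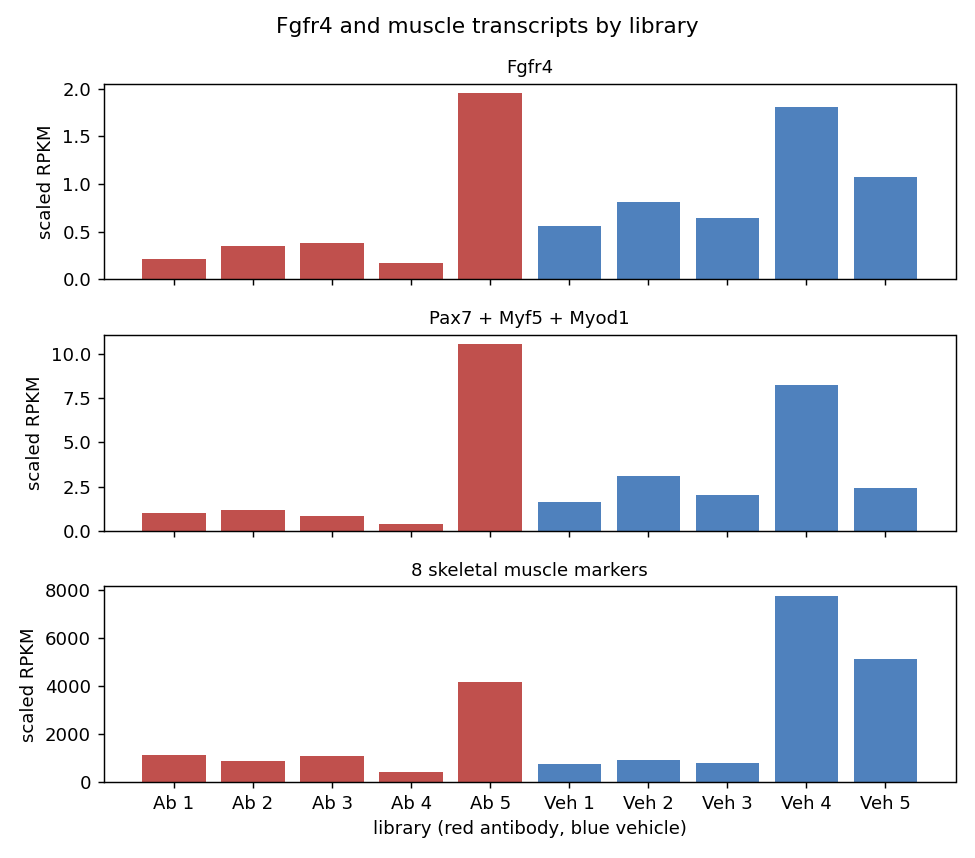
Scaled RPKM of Fgfr4, the summed satellite cell markers Pax7, Myf5 and Myod1, and the sum of 8 skeletal muscle markers, 1 bar per library (Ab, antibody, red; Veh, vehicle, blue). Fgfr4 and the satellite cell sum are both highest in antibody replicate 5 (1.96 and 10.5 RPKM) and vehicle replicate 4 (1.81 and 8.24 RPKM).

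The other secreted FGF ligands were near the limit of detection. Of 10 further paracrine ligand genes 1 passed the filter, Fgf16, which averaged 0.305 ± 0.130 RPKM with antibody and 0.338 ± 0.127 RPKM with vehicle. Fgf8 and Fgf20 had 0 reads in 5 libraries each and 15 and 8 reads over all 10. In the libraries at 0, this count allows up to 0.124 to 0.70 CPM (reads scaled to library size), depending on depth, taking 3 reads as the limit. Of the 3 hormone-like ligands 1 was tested, the bone-derived phosphate hormone gene Fgf23 (0.313 ± 0.170 against 0.200 ± 0.159 RPKM, 78 reads in all). Of the 4 intracellular homologous factors, which are not secreted, 2 were tested. Fgf11 was at 2.20 ± 0.947 against 2.17 ± 1.02 RPKM and Fgf13 at 0.353 ± 0.446 against 0.774 ± 0.535 RPKM (log2 -0.62, SE 0.32, limma adjusted p = 0.740). Fgf11 and Fgf13 were, like Fgfr4, highest in antibody replicate 5 (3.61 and 1.13 RPKM) and vehicle replicate 4 (3.98 and 1.71 RPKM).

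Of 8 co-receptors and ligand-binding proteins 7 were tested and 0 passed, with 3 higher and 4 lower on average and a median log2 difference of -0.02. The members of smallest unadjusted p were Flrt3, a transmembrane partner of FGF receptors (0.775 ± 0.293 against 0.548 ± 0.130 RPKM), the secreted binding protein gene Fgfbp3 (0.414 ± 0.271 against 0.322 ± 0.0931 RPKM) and Kl, the co-receptor for FGF23 (0.280 ± 0.215 against 0.337 ± 0.265 RPKM). Kl was highest in vehicle replicates 1 and 5 and antibody replicates 4 and 2, the 4 libraries highest in the kidney tubule marker Kap. The part of kidney transcripts in the Kl level was not tested. Fgfrl1, which encodes a receptor without a kinase domain and was named after its values were seen, had group means of 7.28 ± 4.34 and 7.28 ± 2.81 RPKM. It was highest in antibody replicate 5 at 14.5 RPKM and vehicle replicate 4 at 11.8 RPKM, the libraries highest in Fgfr4.

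Heparan sulfate proteoglycans and their enzymes were all tested, and 0 of 21 passed. Their mean was lower in antibody veins for 15 and higher for 6, with a median log2 difference of -0.09 beside -0.0053 over all genes tested; with libraries scaled by totals only, 11 were lower and 10 higher. Sdc2, a syndecan that carries heparan sulfate on mesenchymal cells, was at 17.2 ± 1.70 against 21.7 ± 2.93 RPKM (log2 -0.32, SE 0.11, limma adjusted p = 0.739). Hpse, the enzyme that cleaves heparan sulfate chains, was at 6.43 ± 0.729 against 8.04 ± 1.13 RPKM. Sulf2, which removes sulfate groups from the chains, was at 32.3 ± 6.31 against 42.8 ± 10.7 RPKM.

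Receptor adaptors and effectors were level on balance, with 0 of 15 past the threshold, 7 higher, 8 lower and a median log2 difference of -0.02 (10 higher and 5 lower with scaling by totals only). The Ras activator gene Sos1 averaged 5.21 ± 0.425 RPKM with antibody and 4.29 ± 0.550 RPKM with vehicle. Mapk3, which encodes the kinase ERK1, was at 23.6 ± 2.31 against 29.2 ± 4.37 RPKM, and Map2k2, the kinase above it, at 15.3 ± 1.01 against 17.4 ± 2.39 RPKM. All 3 missed the threshold (limma adjusted p = 0.739, 0.739 and 0.771).

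Of the 15 response and feedback genes 0 passed, 5 were higher and 10 lower on average in antibody veins, and their median log2 difference was -0.10 beside -0.0053 over all genes tested. With scaling by totals only, 7 were higher and 8 lower, and the median was -0.018. The members of smallest unadjusted p were all lower: the transcription factor genes Etv4 and Etv5 and the feedback inhibitor gene Spry1. They were the only genes of the list at an unadjusted p below 0.05 by limma, 3 of 15 lower and 0 higher. Among all genes tested, 2.98% were lower and 3.55% higher at that level. The list was chosen with earlier results of these data known. Spry1 stood at 5.45, 5.28, 5.24, 5.39 and 7.40 RPKM in antibody replicates 1 to 5 and at 7.11, 10.7, 7.29, 9.78 and 6.53 RPKM in vehicle replicates 1 to 5 (log2 -0.48, SE 0.15, limma adjusted p = 0.739). Antibody replicate 5 lay above 3 of the 5 vehicle values, and the other 4 antibody values lay below all 5. Etv5 stood at 2.79, 3.12, 3.38, 2.26 and 2.35 RPKM in antibody replicates 1 to 5 and at 3.58, 3.95, 3.65, 3.69 and 3.35 RPKM in vehicle replicates 1 to 5 (log2 -0.35, SE 0.11, limma adjusted p = 0.739), so that the highest antibody value just exceeded the lowest vehicle value. Etv4 was at 0.504 ± 0.115 against 0.855 ± 0.231 RPKM (log2 -0.42, SE 0.13, limma adjusted p = 0.739) on 8 to 82 reads per library. The largest difference in the other direction was in Dusp5, which encodes a nuclear phosphatase of ERK (5.57 ± 3.37 against 3.85 ± 0.763 RPKM, log2 0.31, SE 0.34, limma adjusted p = 0.836), with antibody libraries spread from 2.32 to 10.4 RPKM. Dusp6, a phosphatase of ERK in the cytoplasm, was at 22.2 ± 1.86 against 22.0 ± 2.09 RPKM, and Spry2 at 7.05 ± 0.934 against 7.23 ± 1.07 RPKM. These 3 genes were named after their values were seen. The list's median was 0.02 without vehicle replicate 2, which had the highest Spry1, Etv4 and Etv5 levels. The 6 smooth muscle markers were also lower on average in antibody veins, 6 of 6 with a median log2 difference of -0.25, 1 of them at an unadjusted p below 0.05 by limma and 0 after adjustment. Their sum ran from 237 to 438 RPKM with antibody and from 307 to 487 RPKM with vehicle, where vehicle replicate 2 was highest. Among antibody libraries, replicate 3 had the highest sum, the lowest Spry1 level and the highest Etv5 level. Replicate 5 of that group had the lowest sum and the highest Spry1 level. The part of smooth muscle in the response gene levels was not tested.

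**Figure D4:**
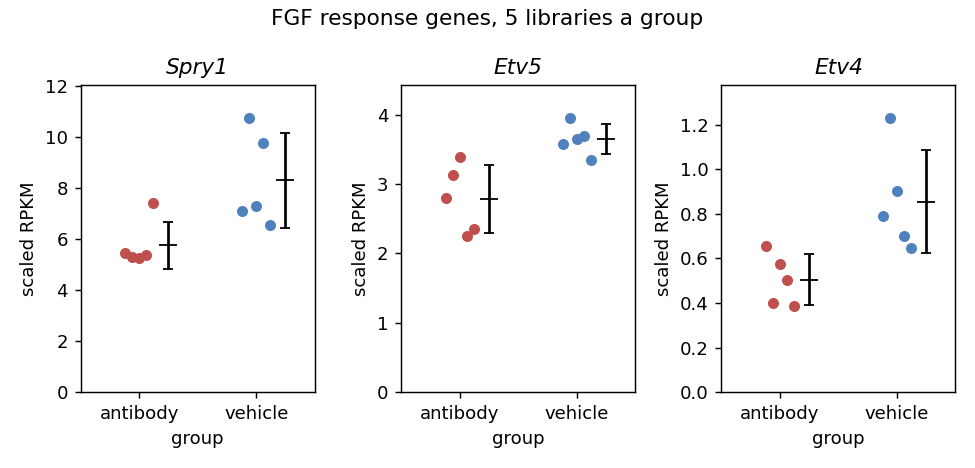
Scaled RPKM of Spry1, Etv5 and Etv4, 1 point per library with the mean and SD of each group beside the points (n = 5). The group ranges overlap in each gene: for Spry1 antibody replicate 5, at 7.40 RPKM, lies above 3 of the 5 vehicle values, and for Etv5 and Etv4 the highest antibody value lies just above the lowest vehicle value. None passed the test across all genes.

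**Figure D5:**
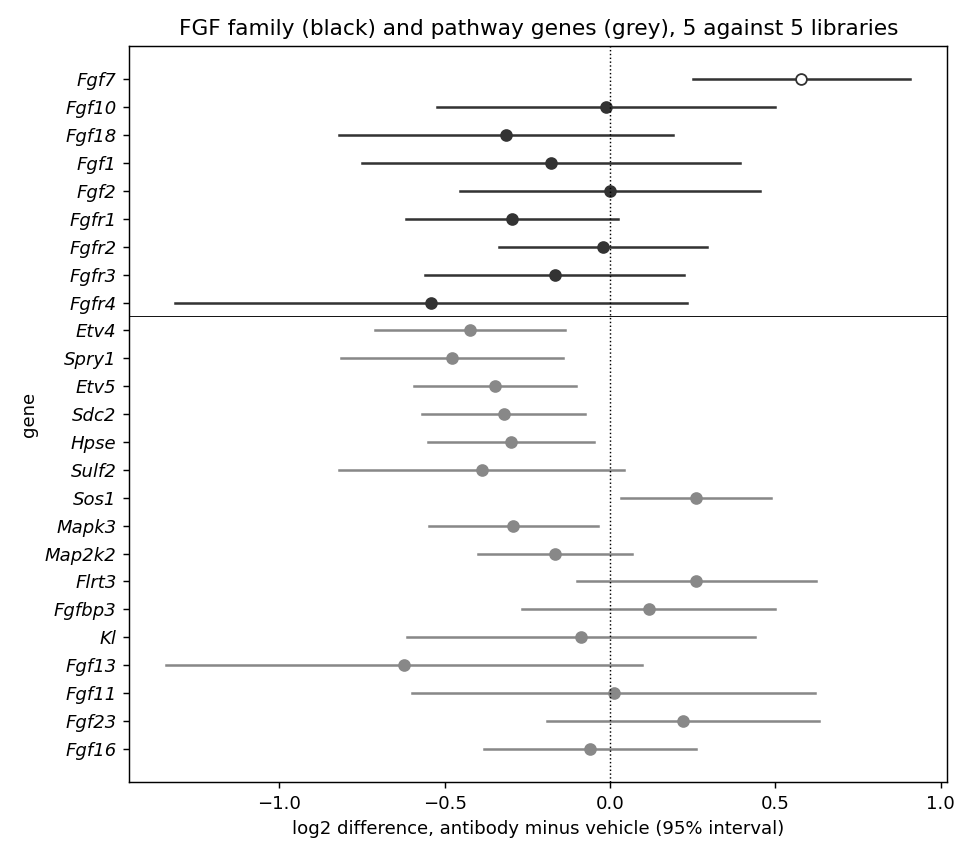
Log2 difference (antibody minus vehicle) with limma's 95% interval for the 9 FGF genes (black) and the pathway genes named by smallest p (grey), 5 against 5 libraries. Fgf7 (open circle, 0.58) was chosen for this contrast, so its interval is a description and not a test. The intervals of the other 8 FGF genes include 0.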

How the data were processed

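The authors deposited 1 table of 43346 genes with 10 RPKM columns, per the file headers. Per the labels' protocols, the TruSeq V2 kit was used on 0.5 µg of RNA, and mm10 is the build in the submitters' processing notes. The sources used here name no aligner, counting tool, strand setting or annotation release. Multiplying RPKM by gene length plus 1 gave whole reads for 100% of values within 0.001. Genes with at least 0.513 CPM in 5 libraries and 15 reads in all were kept (17859). Composition was scaled by trimmed means of M values (factors 0.841 to 1.13). Groups were compared by limma 3.58.1 in R 4.3.3 (log2(RPKM + 0.5), variance trend, group as the only term, two-sided), with Benjamini-Hochberg adjustment over the 17859 genes and a threshold of 0.05. It was checked on simulated data. Single genes were also compared by exact permutation over 252 assignments (smallest possible p 0.00794). The members and gene lists were chosen with earlier results of these data known. From each pathway list the text names up to 3 genes of smallest unadjusted p. Gene lists were not tested as sets. Libraries within a group differed by more than sampling noise (chi-square per degree of freedom at least 12.6). Alternatives covered scaling, filters, pseudocounts, limma-voom, a replicate block and left-out libraries.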

Additional observations from a re-analysis of the deposited data

Results flagged for a closer look

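Fgfr4 in antibody replicate 5, at 1.96 RPKM, stood far from the other 4 libraries of its group, which lay between 0.176 and 0.379 RPKM. The gap was 0.886 of the group's whole range, above the critical value of 0.71 for 5 samples. It was the only such value in 18 groups screened (9 genes in 2 treatment groups), where chance flags about 5% of groups. The same library had the highest satellite cell marker sum, 10.5 RPKM, and the part of muscle tissue in this value was not tested.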

How the results depend on the processing

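The number of genes past the adjusted threshold was 0 under each alternative except the one with no filter on low values, where it was 1 (Gm27598, at 0 to 2 reads per library, named after its values were seen). At an unadjusted p below 0.05 the count of 1166 became 1910 with no filter, which tests 39673 genes, 558 without the 4 libraries highest in Kap, and 773 to 1496 with single libraries left out. Replicate numbers did not pair the libraries (correlation of same-numbered deviations -0.0953 to 0.347, with 3 of 10 libraries correlating best with their own number); the replicate block gave 0 genes past the adjusted threshold and 1252 at an unadjusted p below 0.05. The Fgf7 difference stayed between 0.48 and 0.68 on the log2 scale under all alternatives. Differences near 0 changed sign. Fgf2 was 0.070 with totals only, 0.0046 with no filter, 0.0033 with the filter at 30 reads, 0.0036 with a pseudocount of 1, 0.14 with limma-voom, 0.036 with quality weights, 0.045 without the 4 libraries highest in Kap and -0.11 to 0.13 with single libraries left out. Fgf10 was 0.038 with totals only, -0.28 with quality weights, 0.066 without those 4 libraries and -0.16 to 0.11 with single libraries left out. Fgfr2 was 0.044 with totals only, 0.042 without those 4, 0.011 without the 3 libraries highest in skeletal muscle markers and -0.14 to 0.071 with single libraries left out. Scaling by totals only moved the median of all genes to 0.06. The response list's median ran from -0.14 to 0.024 with single libraries left out. Fgfr4 ran from -1.46 with quality weights to -0.36 with a pseudocount of 1. Of neighbouring levels, 3 to 4 pairs differed with single libraries left out, and 0 without the 4 libraries highest in Kap or without the 3 highest in skeletal muscle markers. In those sets Fgfr1 exceeded Fgf7 and Fgf7 exceeded Fgf18 in 6 of 6 and 7 of 7 libraries, and the smallest possible p was 0.0313 and 0.0156 before adjustment. Leaving out these 4 and 3 libraries was chosen after seeing the data. Depth limits Fgfr4 and Fgf18, which had as few as 6 and 10 reads in a library.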
